A study of Homo sapiens with 4 samples.

Results

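Complement is a set of blood and cell-surface proteins that marks and kills microbes and damaged cells. C3 is its central protein: it is cut into C3b, which coats targets, and C3a, a small inflammatory fragment called an anaphylatoxin. C5 is cut likewise, C3a and C5a act through receptors on myeloid cells, and host cells carry surface proteins that stop the cascade on their own membrane. Monocytes and macrophages make part of these proteins themselves, beside the liver, which makes most of the C3 in blood.

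The genes described here are C3, the receptors C3AR1 and C5AR1, the positive regulator properdin (CFP), and the surface regulators CR1, CD55, CD46 and CD59, 8 genes of 18377 measured. Their names were proposed with earlier results of these data known. Each gene's probe set was chosen by the highest mean log2 intensity over the 4 arrays among those annotated with exactly that gene symbol, so that mean is given only as a description. All 8 genes were found, each with 1 such probe set and none in a probe set shared with another gene.

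Expression was measured on Affymetrix whole-transcript arrays in MOLM-14, an established cell line of human acute myeloid leukemia whose cells resemble early monocytes. The control group was 2 samples given the solvent DMSO, and the treated group was 2 samples given 2 µM DZNep, all for 24 h in RPMI medium with fetal bovine serum. DZNep, 3-deazaneplanocin A, inhibits S-adenosylhomocysteine hydrolase and thereby methyltransferases, EZH2 among them. All samples are 1 cell line, and the titles call the samples of each group biological replicates. The labels do not say whether these were separate cultures, so the p-values below speak to the spread among these 4 samples, which may be technical in part. Array medians of log2 intensity lay between 6.99 and 7.07, and the SD of the log2 difference over all genes was 0.20 between the DMSO arrays and 0.14 between the DZNep arrays. With 2 arrays a group, precision is limited by their number.

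C3 and the receptor of its C3a fragment were higher with DZNep, by 2.22-fold and 1.95-fold, while the C5a receptor, properdin and the 4 surface regulators did not pass the test. Of the 8 genes, 2 rose (25%) and 0 fell at a limma adjusted p under 0.05, where 3.62% of all genes rose and 6.68% fell. The 8 were proposed with earlier results of these data known, so this count is not independent evidence. At an unadjusted limma p under 0.05, 3 were higher and 0 lower, beside 1733 higher and 2343 lower of all 18377 genes. The median log2 fold change of the 8 was 0.07, beside 0.02 over all genes. The arrays of the groups did not overlap for 5 of the 8, 3 higher and 2 lower with DZNep, and that held for 49.7% of all genes, so this count is close to the background. In these bulk samples, a change in the share of cells that express a gene and a change in RNA per cell cannot be told apart.

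**Figure D1:**
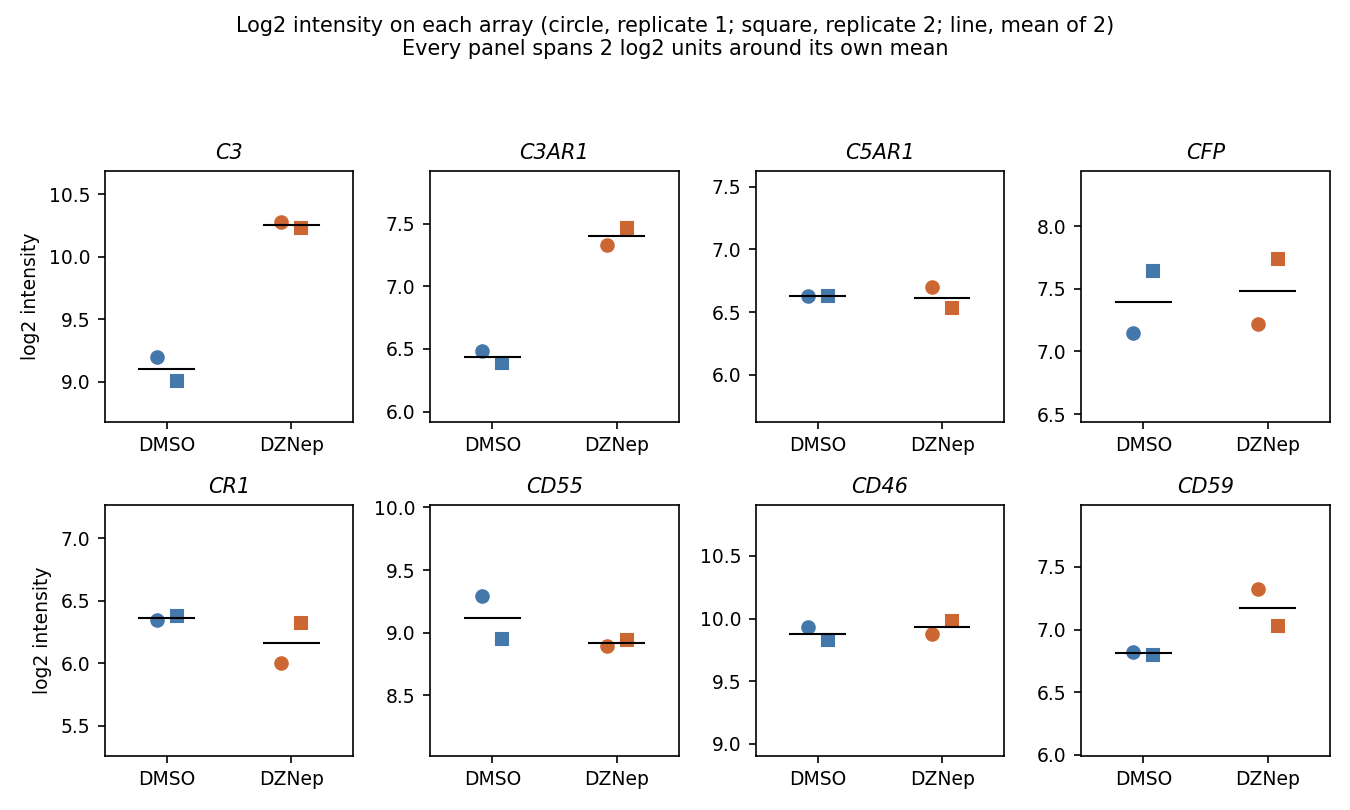
Log2 intensity of each gene (vertical axis) on the 2 DMSO and 2 DZNep arrays, with circles for replicate 1, squares for replicate 2 and a line at the mean of each group; every panel spans the same number of log2 units. C3 and C3AR1 show the widest gap between groups, with C3 at 9.01 and 9.20 under DMSO and 10.23 and 10.28 under DZNep, while CFP differs by replicate number within each group.

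C3 (probe set 8033257) had intensities of 588 and 516 with DMSO and 1242 and 1203 with DZNep. Both DZNep values lay above both DMSO values, and the gap between groups was far wider than the gap within either. Its log2 intensity went from 9.11 ± 0.13 to 10.26 ± 0.03 (SD, n = 2 arrays each), a log2 fold change of 1.15 (limma, SE 0.10, 95% interval 0.92 to 1.38, adjusted p = 0.000268). This was the rise at rank 41 of the 18377 genes. The rise was 1.05 to 1.24 when any 1 array was left out, and its limma adjusted p stayed at or below 0.00238 under every alternative run.

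C3AR1 (probe set 7960874), the G-protein-coupled receptor for C3a, had intensities of 89.4 and 83.9 with DMSO and 161 and 178 with DZNep. The groups did not overlap, and each DZNep array lay well above each DMSO array. The log2 intensity went from 6.44 ± 0.06 to 7.40 ± 0.10 (SD, n = 2 arrays each), a log2 fold change of 0.97 (limma, SE 0.10, 95% interval 0.74 to 1.19, adjusted p = 0.000533). Its change ranked 65 from the highest among all genes. The deposited intensities do not go below 18.1 on any array, and with 16 subtracted from every intensity the log2 fold change of C3AR1 was 1.12 in place of 0.97.

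C5AR1 (probe set 8029907), the receptor for C5a that draws neutrophils and monocytes to sites of injury, had intensities of 99.3 and 99.1 with DMSO and 104 and 92.4 with DZNep. The DMSO values lay between the DZNep values, so the groups overlapped. The log2 fold change was −0.02 (limma, 95% interval −0.25 to 0.21, adjusted p = 0.947), and it was 0.06 without DZNep replicate 2. The interval spans a fold of 0.844 to 1.15. The change of C3AR1 exceeded that of C5AR1 by 0.99 on the log2 scale, with an exact two-sided permutation p of 0.333, the smallest that 2 arrays against 2 can give. This pair and the pair of CD59 and CD55 below were chosen after their values were seen, and the adjusted p over the 2 pairs was also 0.333 by the exact permutation test. C5AR2, the second C5a receptor, which lies next to C5AR1 on chromosome 19, had a value of 0.03 (limma adjusted p = 0.947).

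The promoters of the C3a and C5a receptors are shown because the C3a receptor passed the test and the C5a receptor, of the same family, did not. RefSeq promoter entries were matched for 7 of the 8 genes. C3 had no entry, so its promoter was not searched. The 250 bases before the gene start are printed 5′ to 3′ in build GRCh38.p14. C3AR1 lies on the minus strand at chr12:8066360-8066609 and C5AR1 on the plus strand at chr19:47309611-47309860. Capitals mark every match to 5 motifs searched on both strands, GAGGAA (the core of PU.1, the myeloid master factor), TTNCNNAA (C/EBP), GGNNTTTCC (NF-κB), TGANTCA (AP-1) and TATAAA (the TATA box).
C3AR1: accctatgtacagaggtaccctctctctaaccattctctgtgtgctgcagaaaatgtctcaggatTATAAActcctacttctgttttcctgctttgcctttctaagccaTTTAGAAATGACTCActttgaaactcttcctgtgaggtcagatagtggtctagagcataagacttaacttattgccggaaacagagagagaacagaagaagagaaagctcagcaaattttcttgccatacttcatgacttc
C5AR1: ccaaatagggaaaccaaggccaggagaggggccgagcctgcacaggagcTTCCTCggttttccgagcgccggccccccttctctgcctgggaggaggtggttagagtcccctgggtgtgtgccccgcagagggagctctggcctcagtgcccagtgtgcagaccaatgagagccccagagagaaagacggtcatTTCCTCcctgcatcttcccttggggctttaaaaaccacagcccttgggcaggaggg

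The C3AR1 window held 3 matches, a TATA box motif that begins 185 bases before the gene start, a C/EBP motif on the opposite strand at 141 and an AP-1 motif at 133. The last 2 adjoin without overlap. The C5AR1 window held 2 matches, both of them the PU.1 core on the opposite strand, at 201 and 56 bases before the start. Among 35116 promoter windows of the same length, 10.7% held the TATA box motif, 33.2% the C/EBP motif, 6.57% the AP-1 motif, 23.6% the PU.1 core and 5.48% the NF-κB motif. The windows also differed in base composition, with 40.8% G and C and 1 CpG for C3AR1 against 62% and 7 for C5AR1, where the median of all windows was 58% and 11. A match is a description of the letters only.

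CFP (probe set 8172333) encodes properdin, the plasma protein that stabilizes the C3-cutting enzyme of the alternative pathway and is made largely by leukocytes. Its intensities were 142 and 199 with DMSO and 150 and 213 with DZNep. Replicate 2 exceeded replicate 1 in each group by more than the groups differed, and the groups overlapped. The SD within a group was 0.35 with DMSO and 0.36 with DZNep on the log2 scale, the widest of the 8 genes. The log2 fold change was 0.09 (limma, 95% interval −0.34 to 0.51, adjusted p = 0.858), and it was −0.16 without DMSO replicate 1 and −0.17 without DZNep replicate 2.

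**Figure D2:**
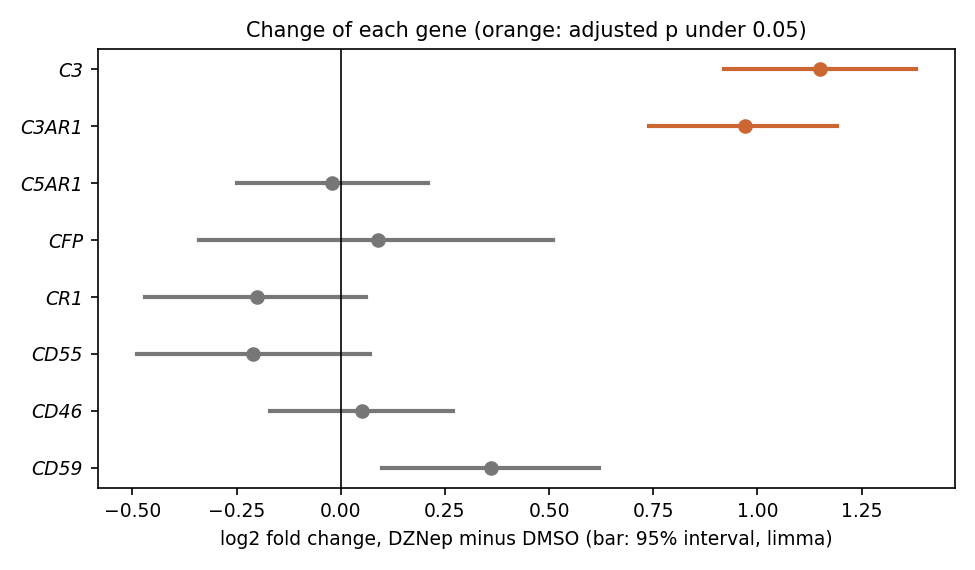
Log2 fold change of each gene, DZNep minus DMSO (horizontal axis), as a point with its 95% limma interval, orange where the adjusted p was under 0.05. The intervals of C3 (0.92 to 1.38) and C3AR1 (0.74 to 1.19) lie far above 0, that of CD59 (0.10 to 0.62) lies above 0 without a call, and the other 5 include 0.

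The 4 surface regulators protect the cell from its own complement at different steps. CR1 binds C3b and C4b and helps factor I cut them, CD55 breaks up the C3-cutting enzymes, CD46 is a cofactor for factor I, and CD59 blocks the pore of the terminal complex. None of the 4 passed the test, and their signs differed. On both DZNep arrays CD59 was higher, and CD55 and CR1 were lower, than on either DMSO array.

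CD59 (probe set 7947425) had intensities of 113 and 112 with DMSO and 159 and 131 with DZNep. Both DZNep arrays were higher, with the DZNep arrays wider apart than the DMSO arrays. The log2 fold change was 0.36 (limma, 95% interval 0.10 to 0.62, adjusted p = 0.0812), which misses the threshold and passed it under 1 alternative, a crossed replicate block added after seeing the data (0.0345). It was 0.22 without DZNep replicate 1 and 0.50 without DZNep replicate 2.

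CD55 (probe set 7909332) had intensities of 628 and 494 with DMSO and 474 and 490 with DZNep. DMSO replicate 1 stood above the other 3 arrays, and DMSO replicate 2 lay only just above the DZNep arrays. The log2 fold change was −0.21 (limma, 95% interval −0.49 to 0.07, adjusted p = 0.39), and it depended on which DMSO array was kept. Without DMSO replicate 1 it was −0.04. Without DMSO replicate 2 it was −0.38 (limma adjusted p = 0.0422), where the remaining DMSO array is assumed to vary like the DZNep arrays, whose SD for CD55 was 0.03 against 0.25 between the DMSO arrays. The change of CD59 exceeded that of CD55 by 0.57 (exact two-sided permutation p = 0.333).

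CD46 (probe set 7909400) had intensities of 977 and 908 with DMSO and 943 and 1009 with DZNep, and the groups overlapped. Its log2 fold change was 0.05 (limma, 95% interval −0.17 to 0.27, adjusted p = 0.841), a fold of 0.888 to 1.21, and 0.00 with a negative sign without DMSO replicate 2. CR1 (probe set 7909371) had intensities of 81.6 and 83.5 with DMSO and 64.2 and 80.0 with DZNep, with DZNep replicate 1 the lowest of the 4. Its log2 fold change was −0.20 (limma, 95% interval −0.47 to 0.06, adjusted p = 0.379), with −0.05 without DZNep replicate 1 and −0.36 without DZNep replicate 2. CR1 is built of near-identical repeats and has a close copy next to it, CR1L, so which transcripts its probes bind is uncertain. On a filter on low values, 7 of the 8 genes lay above the dimmest 25% of all genes, with CR1 below it, and 3 (C3, CD55 and CD46) above the dimmest 50%.

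**Figure D3:**
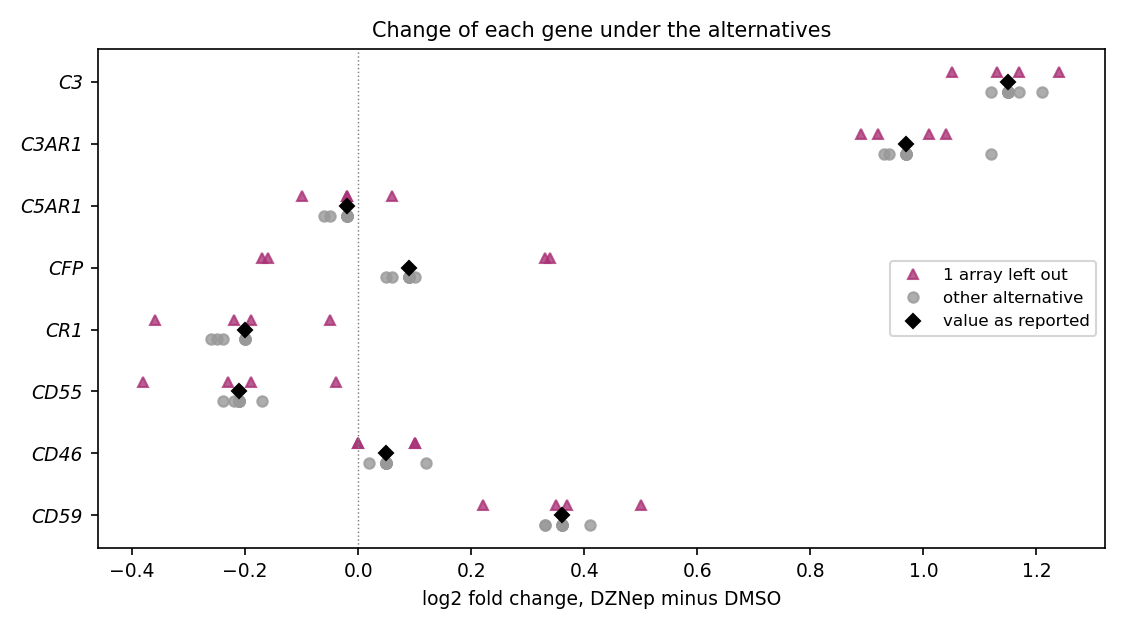
Log2 fold change of each gene (horizontal axis) as reported (diamond), with 1 array left out (triangles) and under the other alternatives (circles). C3 stays between 1.05 and 1.24 and C3AR1 between 0.89 and 1.12, while C5AR1, CFP and CD46 have values on both sides of 0.

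The rest of the pathway was given by a list of 48 other complement genes, of which 41 were measured. C4A and C4B lie only in shared probe sets, and 5 others were not analysed here. Of the 41, 2 rose (4.88%) and 1 fell (2.44%), beside 3.62% and 6.68% of all genes, with a median log2 fold change of 0.03. CD93, a surface glycoprotein of myeloid and endothelial cells once described as a receptor for C1q, had intensities of 466 and 452 with DMSO and 955 and 948 with DZNep. It rose 2.07-fold (limma log2 fold change 1.05, SE 0.09, adjusted p = 0.000253), with no overlap between the groups. CFD, factor D, the protease that starts the C3-cutting enzyme of the alternative pathway, had intensities of 1509 and 1464 with DMSO and 2087 and 2153 with DZNep. It rose 1.43-fold (limma log2 fold change 0.51, SE 0.09, adjusted p = 0.00873), a call that ended without DZNep replicate 2 (0.49, adjusted p = 0.0607). C1QBP, a mostly mitochondrial protein that binds the heads of C1q, fell by 0.36 on the log2 scale (limma adjusted p = 0.0486), and this call was lost when DMSO replicate 2, DZNep replicate 1 or DZNep replicate 2 was left out (adjusted p of 0.082 to 0.3), and with the replicate block (0.0591).

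By role, 0 of 14 recognition proteins and initiating proteases passed in either direction (limma, and 0 at an unadjusted p under 0.05). Their log2 fold changes lay between −0.20 and 0.22. Over all genes 3.62% rose and 6.68% fell at the adjusted threshold, so a count of 0 there is close to the background in lists this small. At the unadjusted threshold 1733 of all 18377 genes were higher and 2343 lower. Of 3 measured genes grouped as convertase components, CFD rose, though it starts the C3-cutting enzyme and is not part of it. Factor B, the other alternative pathway protease, had a value of 0.13 (limma adjusted p = 0.594). Of 7 terminal pathway genes 0 passed (limma, 1 lower at an unadjusted p under 0.05). The precursor of the anaphylatoxin C5a, C5, had intensities of 104 and 95.3 with DMSO and 71.8 and 84.8 with DZNep, lower on both DZNep arrays, at −0.35 on the log2 scale (limma adjusted p = 0.0838). Of 8 soluble regulators 0 passed, nor did any at an unadjusted limma p under 0.05. Among the 9 other receptors and surface proteins, the subunits of the C3b-fragment receptors CR3 and CR4, ITGAM, ITGAX and their shared partner ITGB2, had log2 fold changes of −0.22, −0.22 and 0.11, with limma adjusted p of 0.246, 0.331 and 0.6. C5, ITGAM, ITGAX, ITGB2, CFB and C5AR2 are named after their values were seen. Of the 41 genes, 21 lay in the dimmest 25% of all genes.

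**Figure D4:**
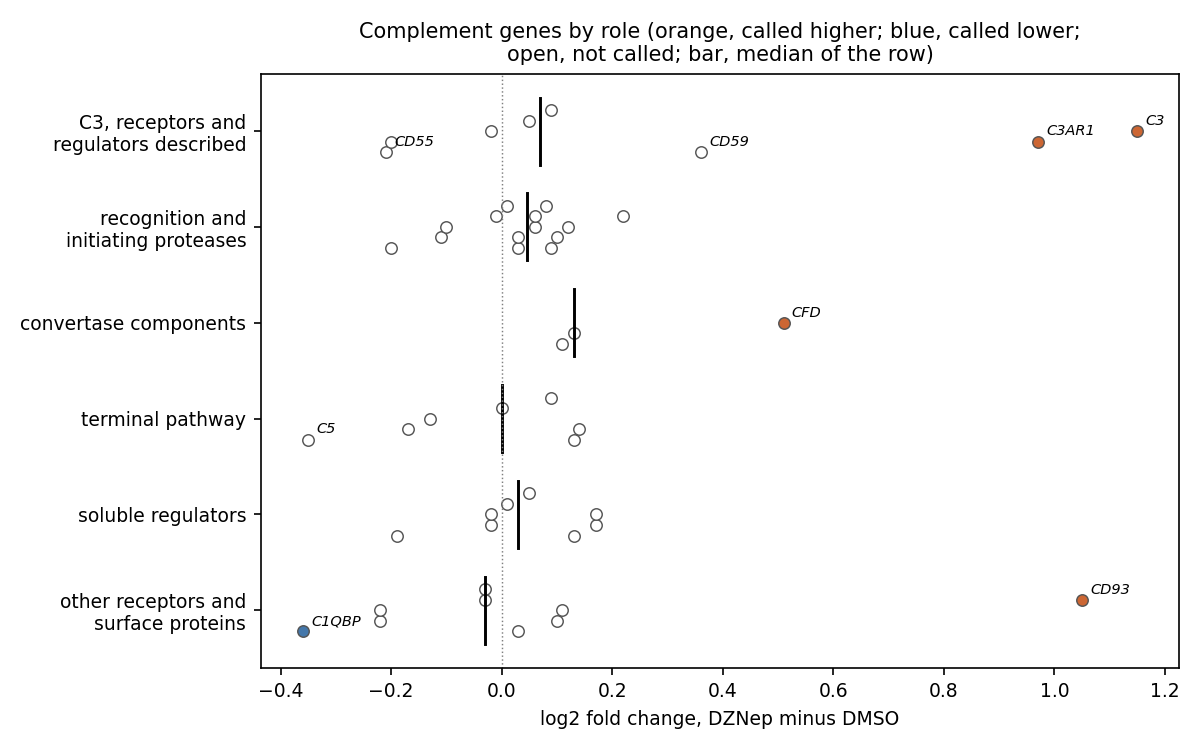
Log2 fold change, DZNep minus DMSO (horizontal axis), of the 8 genes described and of 41 other complement genes in rows by role, orange where called higher, blue where called lower and open where not called, with a bar at each row's median. C3 (1.15), C3AR1 (0.97), CD93 (1.05) and CFD (0.51) stand to the right, and the row medians lie between −0.03 and 0.13.

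Genes known to raise C3 transcription were described from a list of 14 cytokines and factors. Of the 14, 5 rose (35.7%, beside 3.62% of all genes) and 0 fell (limma, beside 6.68%), with a median of 0.18. The other 9 were not called, and the 14 log2 fold changes were 11 positive and 3 negative. At an unadjusted limma p under 0.05, 6 were higher and 0 lower, beside 1733 and 2343 of all 18377 genes. Part of this list was already known to be higher in these data, so its count is not independent evidence. TNF, an inflammatory cytokine, had intensities of 150 and 175 with DMSO and 699 and 614 with DZNep and rose 4.04-fold (limma adjusted p = 3.21e-05). IL1B, an interleukin-1 cytokine secreted by monocytes, had intensities of 103 and 98.5 with DMSO and 139 and 152 with DZNep and rose 1.45-fold (limma adjusted p = 0.00934). The AP-1 subunits JUN and FOS rose by 0.41 and 0.35 and the cytokine IL1A by 0.39 on the log2 scale (limma adjusted p of 0.0314, 0.0446 and 0.0299). IL1A lay in the dimmest 25% of all genes, at 41.1 and 38.7 with DMSO and 52.5 and 52.3 with DZNep. Under median centring JUN, FOS and IL1A each lost their call (limma adjusted p of 0.0599, 0.0802 and 0.0571). The count was 4 with the replicate block, where FOS lost its call (limma adjusted p = 0.062), 2 under median centring, 2 without DMSO replicate 2, 3 without DZNep replicate 1, 3 with 16 subtracted and 1, TNF, without DZNep replicate 2.

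CD55 and CD59 are held on the membrane by a glycosylphosphatidylinositol (GPI) anchor, which cells build in the endoplasmic reticulum. Of 24 genes of GPI anchor synthesis measured, 6 fell (25%, beside 6.68% of all genes) and 0 rose at the limma threshold. At an unadjusted limma p under 0.05, 2 were higher and 10 lower, beside 1733 and 2343 of all 18377 genes. The median log2 fold change was −0.18. Of the 24, 18 lay above the dimmest 50% of all genes, where a larger share of genes was called lower. With only genes above the dimmest 50% tested, 7 of these 18 fell and 1 rose (limma), beside 1475 and 793 of all 9188. PIGA, a subunit of the enzyme of the first step, had intensities of 377 and 297 with DMSO and 185 and 231 with DZNep. It fell by 0.69 on the log2 scale (limma, SE 0.14, adjusted p = 0.0158), with no overlap between the groups. PIGB, a mannosyltransferase, fell by 0.55, PIGN, an ethanolamine phosphate transferase, by 0.55, PIGU, a subunit of the transamidase that attaches the anchor, by 0.47, PIGX, a mannosyltransferase subunit, by 0.41, and DPM1, which makes the mannose donor, by 0.38, with limma adjusted p between 0.00763 and 0.0343. The count was 1 without DMSO replicate 1, 1 without DZNep replicate 1, 3 without DZNep replicate 2 and 3 with 16 subtracted. Of 18 other GPI-anchored surface proteins, 1 fell (5.56%, beside 6.68% of all genes) and 0 rose (limma, beside 3.62%), with a median of 0.02. An unadjusted limma p under 0.05 gave 2 higher and 3 lower, beside 1733 and 2343 of all 18377 genes. The 1 that fell was CD48, a ligand of the lymphocyte receptor CD244, at −0.55 (limma adjusted p = 0.00713). In this list 1 gene was higher and 3 lower without DMSO replicate 2, as with the replicate block.

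**Figure D5:**
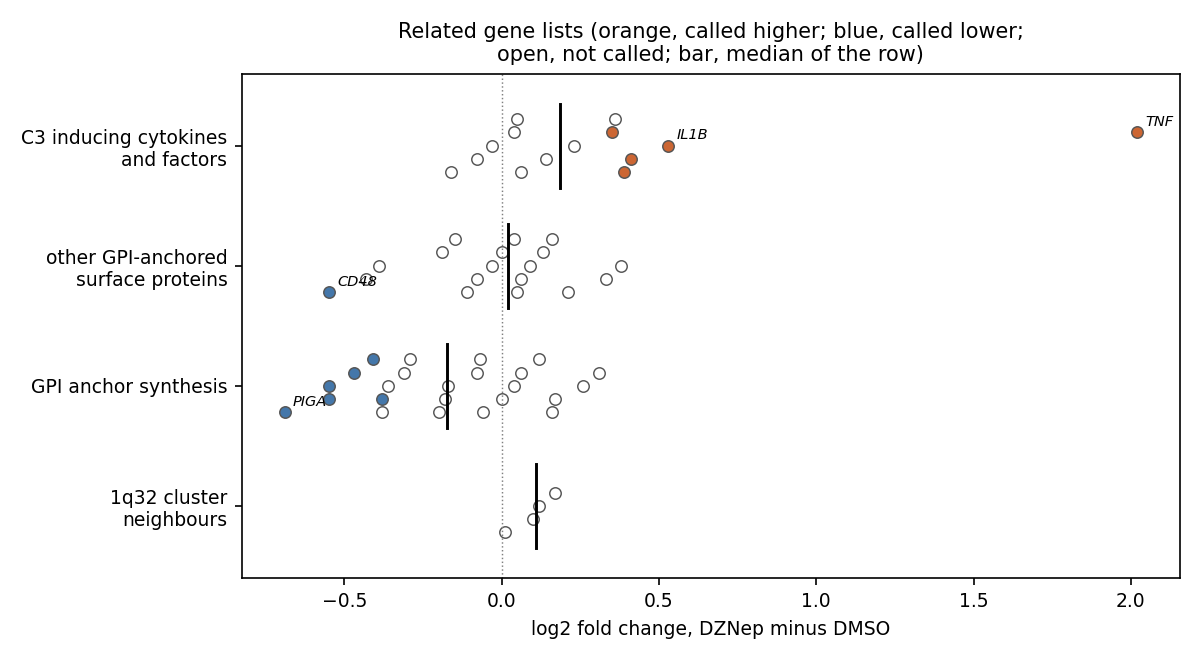
Log2 fold change, DZNep minus DMSO (horizontal axis), of the genes of 4 related lists, one point per gene, orange where called higher, blue where called lower and open where not called, with a bar at each row's median and the names of 4 genes printed. The row of C3 inducing genes has its called genes to the right (TNF at 2.02) and the row of GPI anchor synthesis has them to the left (PIGA at −0.69).

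CR1, CD55 and CD46 lie in 1 cluster of complement regulator genes on chromosome 1. Of this cluster and its edge, 4 other genes were measured, C4BPB, C4BPA, CR2 and CD34. In either direction 0 of the 4 passed (limma, and 0 at an unadjusted p under 0.05). Beside 3.62% of all genes higher and 6.68% lower, 0 of 4 is close to the background. The log2 fold changes of the 4 lay between 0.01 and 0.17. C4BPB, a chain of the C4b-binding protein, had 0.17 and the stem cell antigen CD34 had 0.12. All 4 lay in the dimmest 25% of genes.

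The genes whose pattern over the 4 arrays was most like that of C3 were found by the root mean square difference of log2 values after each gene's own mean was subtracted. The nearest were ETS2, an ETS family transcription factor, at a difference of 0.040, GAPT, a membrane adaptor, at 0.054, HEXIM1, an inhibitor of transcription elongation, at 0.056, CD36, a scavenger receptor, at 0.063, and RESF1, a regulator of retroelement silencing, at 0.066. C3AR1 was at 0.12, rank 28 of 18376 other genes. With 4 arrays in 2 groups, such likeness is mostly a like size of change.

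The labelled cell type was compared with a marker list of leukemic blast and monocytic cells, of which 9 of 12 were measured. Of the 9, 2 rose (22.2%, beside 3.62% of all genes) and 1 fell (11.1%, beside 6.68%), with 4 positive and 5 negative log2 fold changes and a median of −0.15. Lysozyme (LYZ) and the macrophage growth factor receptor CSF1R rose by 0.53 and 0.47 on the log2 scale (limma adjusted p of 0.0114 and 0.0128), and FLT3, the receptor kinase of blasts, fell by 0.94 (limma adjusted p = 0.000535). The macrophage marker CD68, named after its value was seen, had −0.38 (limma adjusted p = 0.0826), lower on both DZNep arrays. Without DZNep replicate 1 the count of markers that rose was 0, and without DZNep replicate 2 it was 1. The summed intensity of the list was 12005 to 12032 with DMSO and 11817 to 12254 with DZNep. LYZ and FLT3 made up most of this sum and moved in opposite directions. LYZ had intensities of 4559 and 5109 with DMSO and 7255 and 6728 with DZNep. Those of FLT3 were 3928 and 3547 with DMSO and 1955 and 1926 with DZNep. A steady sum therefore does not mean that the markers held steady. Markers of hepatocytes, the main source of C3 in the body, summed over 5 genes to 463 and 560 with DMSO and 494 and 469 with DZNep, with overlapping groups and 0 passing in either direction (limma, and 0 at an unadjusted p under 0.05). The same 0 held for 5 T cell, 4 B cell, 3 erythroid and 4 platelet markers. Of the 5 hepatocyte markers, 3 lay above the dimmest 25% of all genes and 0 above the dimmest 50%, so their sums are of dim genes. At the adjusted threshold a count of 0 in lists this small is close to the background. The markers thus moved in both directions, and their part in the rises of C3 and C3AR1 was not tested.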

How the data were processed

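The authors deposited 1 linear intensity per probe set and array, made with RMA, according to the submitters' processing notes; the software, its version and the level of the probe sets are not given in the sources. From these, log2 values were computed as they stand, without a pseudocount or renormalization. Of 28869 probe sets, 19310 carry 1 gene symbol in the supplied platform annotation, which can be old, and the brightest per gene gave 18377 genes. A linear model with the group as its sole term was fitted to every gene in limma 3.58.1 (R 4.3.3; eBayes with no trend; two-sided). P-values were adjusted over all genes by Benjamini-Hochberg, at a threshold of 0.05, with 2 residual and 7.18 prior degrees of freedom. Groups and replicate numbers come from the sample titles. The members, lists and tests were chosen with earlier results of these data known. Named genes are the 8 members, up to 6 called genes of each list by size of change (or the 2 largest changes where none passed), and the 5 most like C3. The cell type markers LYZ, CSF1R and FLT3 were named outside this rule, as the markers that passed. Others are said to have been named after their values were seen. Alternatives were a replicate block, 2 filters on dim genes, median centring, quantile normalization, an intensity trend, averaging all probe sets of a gene, 16 subtracted before log2, and leaving out each array. With the replicate block, and without either DZNep array, limma took the spread of all genes as equal. The p of a gene in these fits does not use its own spread. The script was tested on simulated data. Promoter sequences are from RefSeq.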

Additional observations from a re-analysis of the deposited data

How the results depend on the processing

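C3 and C3AR1 kept their rise and their call under each of 13 and 12 alternatives run, with log2 fold changes of 1.05 to 1.24 and 0.89 to 1.12. The replicate block, plain or crossed, the dim gene filters, the intensity trend and the averaging of probe sets could not change these fold changes. Those alternatives bear on the call only. C3AR1, C5AR1, CFP, CR1 and CD59 are absent without the dimmest 50% of genes, where the count of the 8 genes that rose was 1 of 3 tested. When each array was left out in turn, 2 of the 8 genes rose each time and 0 to 1 fell, 1 to 2 other complement genes rose and 0 to 1 fell, and 336 to 776 of all genes rose and 734 to 1662 fell. No sign was called for the genes that turned: with 1 array left out, C5AR1 went from −0.10 to 0.06 (above 0 without DZNep replicate 2), CFP from −0.17 to 0.34 (−0.16 without DMSO replicate 1, −0.17 without DZNep replicate 2), and CD46 from 0.00, just below 0, without DMSO replicate 2, to 0.10. The count of other complement genes that fell, 1, became 0 under quantile normalization and 0 with 16 subtracted, and the cause was not tested. The samples share only a replicate number: deviations of same-numbered samples correlated at −0.22 over genes. With the replicate block, 2 of the 8 genes rose and 0 fell, 0 other complement genes fell, and 754 of all genes rose and 1353 fell. That fit took the spread of all genes as equal. A crossed replicate block, added after seeing the data, gave 3 of the 8 genes higher, with CD59 gained, 2 other complement genes lower and 1034 of all genes higher.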

Other observations

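The protein-coding genes next to the 8 genes in the RefSeq gene order, were chosen as a comparison after the values were seen. Of 14 neighbours, 11 were measured and 1 passed the test (limma), beside 3.62% of all genes higher and 6.68% lower, so this count is close to the background. C3 lies between TNFSF14, a TNF family ligand, with a log2 fold change of 0.13, and GPR108, a membrane protein, with −0.08 (limma adjusted p of 0.546 and 0.757). C3AR1 lies between the transcription factor FOXJ2, with 0.18, and the endocytosis factor NECAP1, with 0.11 (limma adjusted p of 0.331 and 0.589). The 1 neighbour that passed was TIMP1, an inhibitor of matrix metalloproteinases next to CFP, which rose by 0.55 (limma adjusted p = 0.00543) while CFP had 0.09.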
